A study of Mus musculus with 26 samples.

Results

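The cytosolic ribosomal protein genes encode the protein parts of the ribosome that translates nuclear mRNAs. They were taken here as the protein-coding mouse genes of the RefSeq mm10 annotation whose symbol is Rpl or Rps followed by a number and at most one of the letters a, l or x, together with Rplp0, Rplp1, Rplp2 and Rpsa. The rule found 81 genes among 21900 protein-coding genes, 50 of the large and 31 of the small subunit. The series is a chromatin immunoprecipitation and sequencing study of RAW 264.7, a mouse macrophage cell line. Stable lines carried either HA-tagged Nur77 or GFP under doxycycline control. Nur77 is a nuclear receptor of the NR4A family and GFP is the control protein. Every group, controls included, had received 50 ng/ml doxycycline for 18 h, and was then left untreated or given 500 ng/ml lipopolysaccharide (LPS), a bacterial cell wall component that activates macrophages, for 1 h. RNA polymerase II (Pol II) and H3K27ac, a histone acetylation mark of active promoters and enhancers, were each measured in 4 groups of 2 libraries: GFP line untreated, GFP line with LPS, Nur77 line untreated and Nur77 line with LPS. HA-Nur77 was measured with an HA antibody in the Nur77 line alone, in 3 untreated and 3 LPS libraries, after an additional protein crosslinking step. The series holds no HA library of the GFP line, so the HA antibody signal in cells without the tagged protein was not measured. Each construct was represented by 1 stable line, and a difference between lines may belong to the line or to the construct.

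Ribosomal protein genes are short, transcribed at high rates in growing cells and spread over most chromosomes, and their products are needed in equal amounts. Many of their mRNAs begin with a C followed by a run of pyrimidines, the 5′ terminal oligopyrimidine (TOP) tract, which places their translation under control of the kinase mTOR, and their promoters often carry a matching pyrimidine initiator in place of a TATA box. In macrophages, LPS induces cytokine genes within the first hour, while ribosomal protein genes are commonly treated as constant reference genes.

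The value of a gene in a library was the sum of the deposited normalized tags (tags per 10 M mapped tags, where M stands for mega) of all peaks touching the gene span extended by 1 kb on either side. These sums were scaled between libraries by trimmed means and are called scaled tags below. The depth ran from 11.9 to 23.1 M mapped tags in the Pol II libraries, from 22.3 to 28.4 M for H3K27ac and from 6.41 to 18.2 M for HA. All 10 macrophage marker genes examined had Pol II and H3K27ac peaks in every library, whereas the hepatocyte genes Alb and Apoa1, the fibroblast genes Col1a1, Col1a2 and Pdgfra and the T cell genes Cd3e, Cd3g and Cd8a had none. Windows of Cd4, Cd79a, Gfap and Syp held peaks in every Pol II and H3K27ac library. The untreated Nur77 Pol II library 1 stood apart, with an estimated fragment length of 1550 bp against 174 to 318 bp in the other 7 Pol II libraries. HA libraries also differed, with estimates of 910, 1016 and 342 bp in untreated libraries 1, 2 and 3 and 876, 826 and 426 bp in LPS libraries 1, 2 and 3. The labels do not say that libraries of a group came from separate cultures, so the p-values measure the spread between libraries, which may be technical. A rise in the share of cells carrying a signal and a rise in signal per cell cannot be told apart in bulk chromatin.

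Of the 81 genes, 78 had a Pol II peak in all 8 Pol II libraries and an H3K27ac peak in all 8 H3K27ac libraries, and these 78 entered the tests. The exceptions were Rpl32l, Rpl10l and Rpl39l, of which the latter 2 are paralogs known from testis; Rpl39l had a single Pol II peak of 17.3 scaled tags in GFP LPS library 2, and Rpl32l and Rpl10l had no Pol II peak in any library. The genes are short, with a median span of 3175 bp against 17146 bp over all protein-coding genes. At 53 of the 78 genes a Pol II peak also touched the window of another protein-coding gene, and at 45 an H3K27ac peak did. A median of 57.8% of the Pol II tags and 90.4% of the H3K27ac tags assigned to a gene fell inside its own window when each peak's tags were spread evenly over its length. A region or peak called in an input library (1 per line and state) lay over 15 of the genes, and 29 contained a snoRNA gene. Either kind is called a region below. Of the 15, those named below are Rps27a, Rps7, Rps15a, Rps29, Rps27, Rpl3, Rpl17, Rpl27 and Rpl41. The files do not show how reads from processed pseudogenes, which this family has in large numbers, were placed.

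Start sites from the RefSeq promoter table (GRCm38.p6, 250 bases before to 50 after each start) were at hand for 61 of the 81 genes, in 73 records. A TOP-type initiator, read on the sense strand as a C followed by at least 4 pyrimidines and beginning within 5 bases of the annotated start, was present in 31 of 73 records (42.5%), against 18.6% of the 21263 promoter records of protein-coding genes. The following stretches hold the 40 bases before the annotated start and the 20 bases from it onward, and are shown because these genes carry the results below or serve as usual reference genes. The start listed for Rpl38 lies 762 bp inside its annotated gene span. Capitals mark the pyrimidine initiator. The first 3 genes had one, and Rplp0, Rpsa and Rps28 had none by this definition.
Rps6 (chr4:86857348-86857407, minus strand): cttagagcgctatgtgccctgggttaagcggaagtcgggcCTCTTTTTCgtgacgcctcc
Rpl38 (chr11:114668540-114668599, plus strand): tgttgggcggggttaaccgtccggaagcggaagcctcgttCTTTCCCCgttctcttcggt
Rpl27a (chr7:109519155-109519214, plus strand): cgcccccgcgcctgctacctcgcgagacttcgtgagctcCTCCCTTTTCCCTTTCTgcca
Rplp0 (chr5:115559427-115559486, plus strand): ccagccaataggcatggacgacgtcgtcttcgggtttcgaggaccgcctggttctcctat
Rpsa (chr9:120127726-120127785, plus strand): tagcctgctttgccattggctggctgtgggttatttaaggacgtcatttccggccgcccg
Rps28 (chr17:33824543-33824602, minus strand): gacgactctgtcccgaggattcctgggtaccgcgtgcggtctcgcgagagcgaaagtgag
In the same windows, searched on both strands, CCGGAAG, the core of ETS factor sites, was in 35.6% of the records against 11.6% of the promoters of protein-coding genes, GGGCGG (SP/KLF) in 57.5% against 46.2% and AAGATGG (YY1) in 15.1% against 6.24%. TATAAA was in 9.59% against 12.6%, CACGTG (E-box) in 11.0% against 7.84%, and TGANTCA (AP-1) in 2.74% against 6.99%. AAGGTCA, the inner part of the site that NR4A receptors bind as monomers, was in 9.59% of records against 4.08%. The 3 overlapping records of Rpl35a hold 1 and the same match, and by gene AAGGTCA was in 5 of 61 (8.2%). Over all 32851 promoters, those of non-coding genes included, the shares were 8.86% for ETS, 35.7% for SP/KLF, 6.34% for YY1, 13.6% for TATAAA, 7.15% for the E-box, 7.81% for AP-1, 4.72% for AAGGTCA and 18.3% for the initiator. These shares are descriptions of short letter matches.

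Pol II over ribosomal protein genes was higher after 1 h of LPS in both lines. In the GFP line 12 of 78 genes rose and none fell at a false discovery rate (FDR) of 0.05 (limma on log2 of scaled tags plus 1, across 11890 genes), where 7.78% of all genes rose and 6.22% fell; 37 of the 78 had an unadjusted p below 0.05. The median log2 change of the 78 genes was 0.39, against 0.01 over all genes, and 71 were positive. For the Nur77 line, 47 of 78 rose and none fell, where 12.1% of all genes rose and 12.7% fell; 56 had an unadjusted p below 0.05. The median change there was 0.68, against 0.01 over all genes, and 75 were positive. All 12 genes called in the GFP line were among the 47 called in the Nur77 line, which is 25.5% of the latter.

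**Figure D1:**
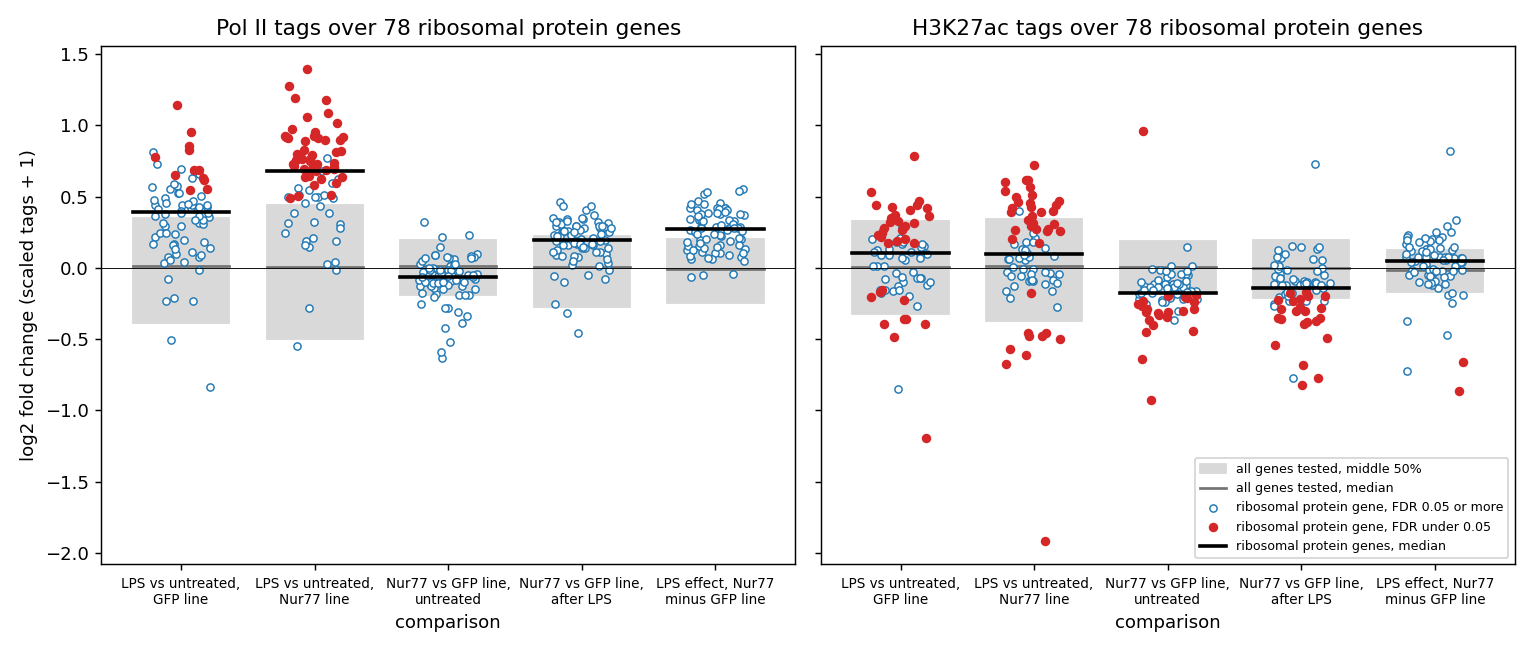
Log2 fold change of scaled tags plus 1 (y axis) for 78 ribosomal protein genes in 5 comparisons each of Pol II (left) and H3K27ac (right); points are genes, filled where the FDR is under 0.05, black bars their medians, grey boxes and bars the middle 50% and the median of all genes tested. The Pol II medians after LPS lie at 0.39 and 0.68, above the grey boxes, while the H3K27ac medians lie at 0.10 and 0.09, inside them.

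Library values showed the same order. The median over the 78 genes was 910 and 1005 scaled tags in the untreated GFP libraries and 1271 and 1307 after LPS. Nur77 line medians were 891 and 895 untreated and 1395 and 1599 after LPS, so that the groups did not overlap in either line. Gene by gene, both LPS libraries exceeded both untreated libraries at 58 of 78 genes in the GFP line (74.4%, against 29.8% of all genes) and at 72 in the Nur77 line (92.3%, against 33.7%). They lay below both untreated libraries at 4 genes in the GFP line (28.4% of all genes) and 2 in the Nur77 line (33.4%).

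Part of the rise in summed tags was in the length of the called peaks. Per gene, the median covered length in the GFP line went from 8.93 to 9.60 kb and the median density from 102 to 127 tags per kb. Nur77 line lengths went from 8.61 to 9.29 kb and the density from 103 to 144 tags per kb. Tested as tags per kb, 0 of 78 genes passed in the GFP line (limma, 18 with unadjusted p below 0.05, median 0.31) and 3 in the Nur77 line (32 with unadjusted p below 0.05, median 0.39), where 1.48% and 2.72% of all genes were higher. Counting only the tags inside each gene's own window, 5 and 37 genes rose, with medians of 0.27 and 0.52, where 7.22% and 11.6% of all genes did. The 5 in the GFP line are 6.41% of the family, below the share of all genes, and the 37 in the Nur77 line 47.4%. At the 25 genes that shared no Pol II peak the medians were 0.44 and 0.69. There 2 (8%) and 17 (68%) were called, where 7.78% and 12.1% of all genes rose. The share in the GFP line was near that of all genes.

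The count of calls depended on the number of libraries, the medians less so. Same-numbered Pol II libraries deviated together, and with the replicate number as a block 32 genes rose and 1 fell in the GFP line (13.4% and 12.4% of all genes) and 58 rose and 1 fell in the Nur77 line (19.4% and 19.3%). The count in the GFP line was 0 without GFP untreated library 1, 1 without GFP untreated library 2, 0 without GFP LPS library 1 and 3 without GFP LPS library 2; it was 3 without either untreated Nur77 library and 8 without either Nur77 LPS library. That of the Nur77 line was 13 without untreated library 1, the one with the long fragment estimate, 7 without untreated library 2 and 22 without LPS library 2, and 34 to 43 without any other library. The median stayed between 0.34 and 0.45 in the GFP line and between 0.59 and 0.75 in the Nur77 line. With the block and without untreated Nur77 library 1, a setting added after the data were seen, 14 and 30 genes rose. Left unscaled, the median over all genes was -0.12 and -0.35. The ribosomal protein genes then stood at 0.26 with 2 calls and at 0.32 with 8 higher and 1 lower. They lay 0.38 and 0.67 above all genes with and without scaling factors. The shares of all genes called are not given here for the unscaled fits, nor for the block without untreated Nur77 library 1.

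Rps6, the small subunit protein phosphorylated downstream of mTOR (chr4:86854099-86857367), held 782 and 838 scaled Pol II tags in the untreated GFP libraries and 1306 and 1304 after LPS, and 713 and 800 untreated and 1517 and 1687 after LPS in the Nur77 line. The groups did not overlap. Its log2 change was 0.69 (SE 0.14, FDR 0.026, limma) in the GFP line and 1.08 (SE 0.14, FDR 0.0036, limma) in the Nur77 line, and inside its own window the changes were 0.68 and 1.08.

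Rpl38, a large subunit protein known for selective translation of Hox mRNAs (chr11:114667818-114672333), had the largest change in the GFP line. Its Pol II tags were 928 and 1054 untreated and 2438 and 1959 after LPS in the GFP line, and 894 and 925 untreated and 2039 and 2386 after LPS in the Nur77 line. The log2 changes were 1.14 (SE 0.18, FDR 0.0095, limma) and 1.28 (SE 0.18, FDR 0.0040, limma). Its covered length went from 9.91 to 16.1 kb in the GFP line and from 9.76 to 15.7 kb in the Nur77 line, and inside its own window the changes were 0.40 and 0.50.

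Rps27a, which encodes a ubiquitin fusion of the small subunit protein (chr11:29545842-29548040), had the largest change in the Nur77 line. It held 1495 and 1872 Pol II tags untreated and 2654 and 3445 after LPS in the GFP line, and 1494 and 1628 untreated and 3931 and 4258 after LPS in the Nur77 line. The log2 changes were 0.85 (SE 0.20, FDR 0.036, limma) and 1.39 (SE 0.20, FDR 0.0046, limma), with 0.75 and 1.19 inside the window. A region called in an input library lay over this gene.

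Rpl27a, Rps20, Rps25 and Rps13 were also among the genes with the largest called changes in at least 1 line. Rpl27a rose from 992 and 1116 to 1756 and 1846 tags in the GFP line and from 956 and 1038 to 2092 and 2480 in the Nur77 line, log2 changes of 0.77 and 1.19 (FDR 0.024 and 0.0036, limma). Rps20 rose from 770 and 750 to 1552 and 1400 tags in the GFP line and from 954 and 834 to 1913 and 1705 in the Nur77 line, log2 changes of 0.95 and 1.02 (FDR 0.010 and 0.0051, limma). The groups of both genes were separate in both lines. Rps25 rose in the GFP line from 695 and 707 to 1372 and 1129 tags, a log2 change of 0.83 (FDR 0.047, limma), with 0.29 inside its window, and in the Nur77 line its change was 0.90 (FDR 0.025, limma). Rps13 rose in the Nur77 line from 993 and 895 to 2190 and 2086 tags, a log2 change of 1.18 (FDR 0.0067, limma), with 0.67 inside its window; in the GFP line its change of 0.73 missed the threshold (FDR 0.0504, limma).

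Among the usual reference genes, Rplp0, the large subunit stalk protein, held 1212 and 1608 Pol II tags untreated and 2218 and 2191 after LPS in the GFP line. The Nur77 line held 1708 and 1785 untreated and 2642 and 2627 after LPS. The groups were separate, but the log2 changes of 0.66 and 0.59 missed the threshold (FDR 0.054 and 0.052, limma) and passed it with the replicate block (FDR 0.028 in both, limma). Rpsa, the small subunit protein also known as laminin receptor, rose from 888 and 1047 to 1577 and 2091 tags in the Nur77 line, a log2 change of 0.91 (FDR 0.034, limma). GFP line libraries held 784 and 1050 untreated and 1272 and 1656 after LPS, a change of 0.68 that passed only with the block (FDR 0.11 without and 0.011 with it, limma). Rpl3, a large subunit protein near the peptidyl transferase centre, rose from 2778 and 2737 to 4087 and 4245 tags in the Nur77 line, a log2 change of 0.60 (FDR 0.033, limma). GFP line libraries held 2982 and 2797 untreated and 3582 and 3558 after LPS, a change of 0.31 (FDR 0.24, limma).

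**Figure D2:**
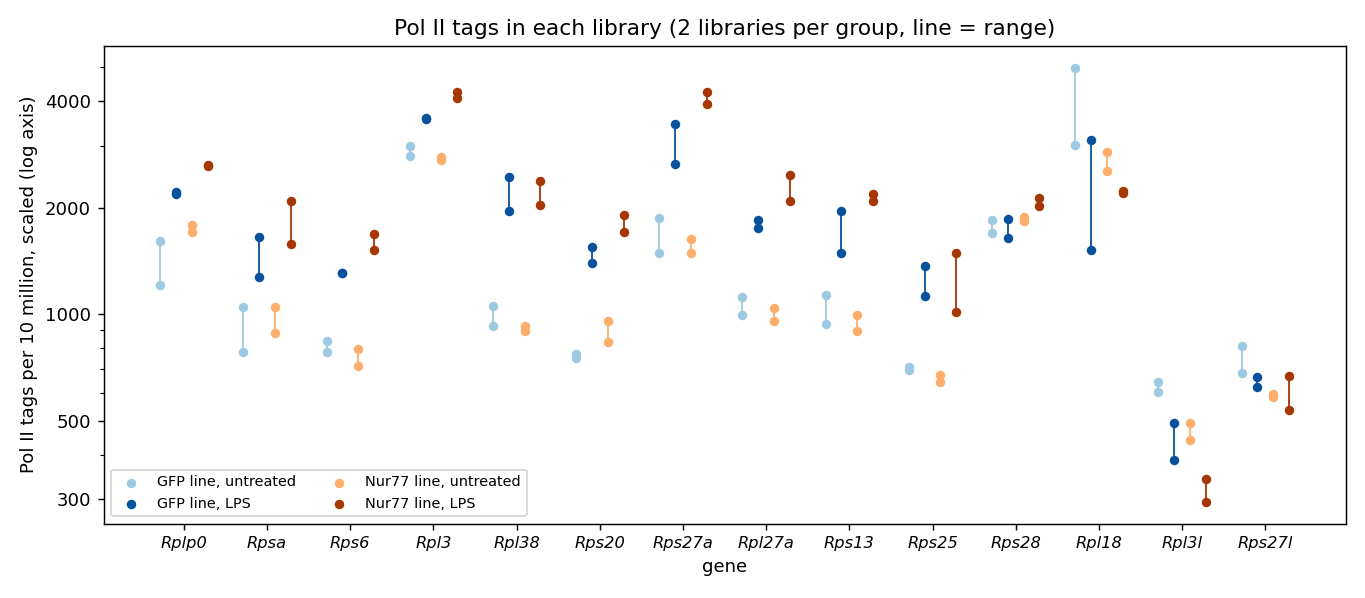
Scaled Pol II tags per 10 M (y axis, log scale) of 14 ribosomal protein genes in each of the 8 Pol II libraries; points are libraries, colours the 4 groups and lines join the 2 libraries of a group. At Rps6, Rpl38 and Rpl27a both LPS libraries of a line lie above both untreated ones, at Rps28 they overlap in the GFP line, and at Rpl3l they lie below.

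The family was not uniform. Rpl3l, a paralog of Rpl3 known from heart and skeletal muscle (chr17:24727826-24736143), held 642 and 603 Pol II tags untreated and 494 and 388 after LPS in the GFP line, and 491 and 441 untreated and 343 and 295 after LPS in the Nur77 line. Its log2 changes of -0.51 and -0.55 (FDR 0.11 and 0.064, limma) passed the threshold with the block (FDR 0.029 and 0.016, limma); its peaks also touched another gene's window and 51.2% of their tags lay inside its own. Rps27l, a paralog of Rps27 known as a p53 target, held 815 and 681 tags untreated and 663 and 624 after LPS in the GFP line, a change of -0.21 (FDR 0.46, limma), and its change in the Nur77 line was 0.02. Rpl18 had the lowest change in the GFP line, -0.84 (FDR 0.20, limma), but its libraries ranged from 3012 to 4984 tags untreated and from 1516 to 3108 after LPS. Rps4l is annotated as a pseudogene and is not a member.

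Levels per length spanned a wide range. The highest mean Pol II levels over the 8 libraries were 1833 tags per kb of gene at Rpl41 and 1732 at Rps27, and the lowest among the tested genes were 26.7 at Rpl22, 55.6 at Rpl3l and 86.5 at Rpl5. The high values are partly set by length, since Rpl41 spans 1059 bp and only 29.9% of its peak tags fell inside its window, against 9647 bp and 96.4% at Rpl22. Of these 5 genes, Rps27 rose in the Nur77 line, with a log2 change of 0.82 (FDR 0.020, limma). The changes of Rpl41 were 0.05 and 0.28 (FDR 0.89 and 0.32, limma) and those of Rpl22 0.36 and 0.31 (FDR 0.46 in both, limma).

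The rise in the Nur77 line was shared by both subunits. Medians were positive in both lines at genes with and without a pyrimidine initiator. In the Nur77 line 26 of 47 large subunit genes and 21 of 31 small subunit genes rose, with medians of 0.64 and 0.69, where 12.1% of all genes rose. The split by subunit is not given here for the GFP line. Among the genes with a promoter record, 15 of 28 with the initiator and 17 of 30 without it rose in the Nur77 line, with medians of 0.55 and 0.67. In the GFP line 4 of 28 and 4 of 30 rose, with medians of 0.35 and 0.43, where 7.78% of all genes rose. Genes with a snoRNA inside had medians of 0.36 and 0.64 in the GFP and Nur77 lines, and genes without one 0.42 and 0.69.

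**Figure D3:**
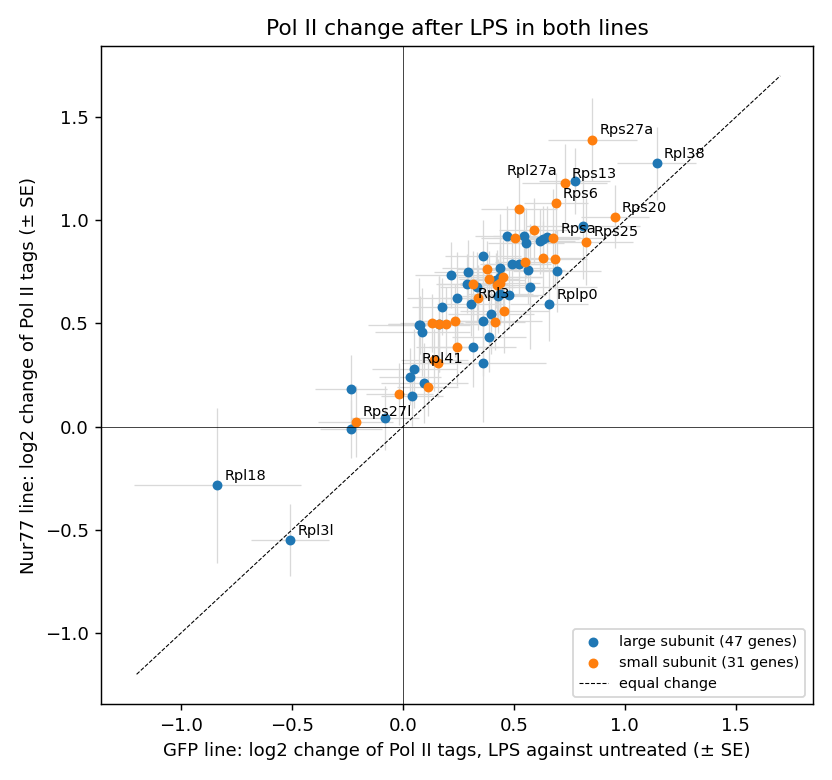
Log2 change of Pol II tags after LPS in the GFP line (x axis) and the Nur77 line (y axis) for 78 ribosomal protein genes, with standard errors; blue, large subunit, orange, small subunit, dashed line, equal change. 75 of 78 points lie above the dashed line, none of them with a difference that passed the test.

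The LPS change was larger in the Nur77 line at 75 of 78 genes, by a median of 0.27 on the log2 scale against -0.01 over all genes. Across the 78 genes the changes in the 2 lines, which share no library, correlated with Pearson's r = 0.91 (0.87 across all 11890 genes). No gene passed the test of this difference (limma, 0 of 78 called and 0 with unadjusted p below 0.05; 0.0252% of all genes were called larger and 0.0421% smaller), and with the block 12 had an unadjusted p below 0.05 and none was called. The smallest p-values were those of Rpl30 (difference 0.52, SE 0.23), Rps23 (0.54, SE 0.24) and Rpl6 (0.45, SE 0.21), each with an FDR of 0.9999 (limma). At Rps6 the difference was 0.39 (SE 0.20) and at Rplp0 -0.07 (SE 0.25). Without scaling factors the median difference was 0.05 against -0.23 over all genes, and as tags per kb it was 0.09.

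Compared directly between the lines, no ribosomal protein gene passed the test in Pol II. Untreated, 0 of 78 genes were called (limma, 2 with unadjusted p below 0.05; 0.16% of all genes called higher in the Nur77 line and 0.0841% lower), with a median of -0.06. Both Nur77 libraries lay below both GFP libraries at 23 genes (29.5%, against 19.2% of all genes) and above them at 6 (7.69%, against 20.5%). The smallest p-values belonged to Rps29 (-0.63, FDR 0.26, limma), Rps7 (-0.59, FDR 0.35, limma) and Rpl3l (-0.42, FDR 0.58, limma). The sign of the median turned to 0.09 without scaling factors and to 0.06 as tags per kb. After LPS, 0 of 78 were called (limma, 5 with unadjusted p below 0.05; 0.278% and 0.269% of all genes called higher and lower), nor with the block (limma, 18 with unadjusted p below 0.05; 1.04% and 1.24% of all genes). Both Nur77 libraries then lay above both GFP libraries at 45 genes (57.7%, against 21.1% of all genes) and below them at 4 (5.13%, against 21.8%). Of the 78, 70 were positive and the median was 0.19, with the smallest p-values among the genes named here at Rps16 (0.46, FDR 0.21, limma) and Rpl35 (0.37, FDR 0.29, limma).

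Other genes of the translation apparatus were counted in Pol II after LPS beside all genes, of which 7.78% rose in the GFP line and 12.1% in the Nur77 line. Values of the listed genes are summed tags of whole peaks, which may reach beyond the gene. Their changes inside the window and the sharing of their peaks with other genes are not given here. Of 31 translation factor and other TOP mRNA genes, 6 rose in the GFP line (19.4%) and 12 in the Nur77 line (38.7%) and none fell, with medians of 0.29 and 0.58. They included Eif2s2, a subunit of initiation factor eIF2 (log2 changes 0.92 and 1.31, FDR 0.016 and 0.0031, limma), and Eef1b2, a subunit of the elongation factor 1 complex (0.70 and 1.22, FDR 0.031 and 0.0032, limma). Vim, which encodes the filament protein vimentin and has a TOP mRNA, rose by 1.81 and 1.45 (FDR 0.019 and 0.025, limma). Of 43 ribosome biogenesis genes, 3 and 5 rose (6.98% and 11.6%, near the shares of all genes) and none fell, with medians of 0.16 and 0.35; Rrs1, a large subunit assembly factor, rose by 2.28 and 2.60 (FDR 0.00062 and 0.00038, limma) and Tcof1, a nucleolar factor of rRNA transcription, by 2.57 and 2.73 (FDR 0.0051 and 0.0027, limma).

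The 78 mitochondrial ribosomal protein genes tested encode the proteins of the separate ribosome inside mitochondria. In the GFP line 6 rose (7.69%) and 2 fell (2.56%), and in the Nur77 line 10 rose (12.8%) and 6 fell (7.69%), with medians of 0.10 and 0.09. The shares of rises were near those of all genes, 7.78% and 12.1%, and 6.22% and 12.7% of all genes fell. The strongest were Mrpl39 (4.78 and 4.86, FDR 0.00044 and 0.00038, limma) and Mrpl52 (2.48 and 2.70, FDR 0.0014 and 0.00078, limma). Both are changes in summed tags of whole peaks, and how much lay inside the genes' own windows is not given here. Of 7 other genes of cytosolic ribosomal proteins or close paralogs, 1 rose in each line, Rpl22l1, a paralog of Rpl22 (0.75 and 0.83, FDR 0.015 and 0.0062, limma). Among 20 genes named as regulators of ribosomal protein promoters or TOP mRNAs, 1 rose and 3 fell in the GFP line and 2 rose and 3 fell in the Nur77 line. Mycn, a Myc family transcription factor, fell, with changes of -2.81 and -2.40 (FDR 0.00043 and 0.00048, limma), and Eif4ebp2, a repressor of cap-dependent initiation, fell, with changes of -1.11 and -1.13 (FDR 0.020 and 0.012, limma). The genes that rose, named after their values were seen, were Mxd1, which encodes a partner of Max, in the GFP line (1.06, FDR 0.040, limma) and Myc and Tbpl1, a paralog of the TATA-binding protein, in the Nur77 line.

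Myc, a transcription factor known to raise the expression of ribosomal protein and ribosome biogenesis genes, had the largest positive Pol II changes of these 20 genes. It held 68.8 and 126 scaled Pol II tags in the untreated Nur77 libraries and 1497 and 1635 after LPS, a log2 change of 4.06 (SE 0.89, FDR 0.020, limma). The untreated GFP libraries held 96.7 and 619 tags and the LPS libraries 1257 and 3921, a change of 3.17 (SE 0.89) that missed the threshold (FDR 0.062, limma). The groups were separate in both lines, although the libraries of a GFP group lay far apart. H3K27ac over Myc rose in both lines, with log2 changes of 2.57 and 2.20 (FDR 9.9e-06 and 2.0e-05, limma). Tbpl1 rose by 0.63 in Pol II in the Nur77 line (FDR 0.033, limma).

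H3K27ac over the ribosomal protein genes changed in both directions after LPS, with shares of rises near those of all genes. In the GFP line 25 of 78 rose and 10 fell (limma, 29.0% and 25.3% of all 12055 genes), with a median of 0.10 against 0.01 over all genes. In the Nur77 line 29 rose and 10 fell (30.3% and 28.3% of all genes), with a median of 0.09. Both LPS libraries lay above both untreated ones at 41 genes in the GFP line (41.0% of all genes) and 40 in the Nur77 line (41.3%), and below them at 22 (39.2%) and 19 (39.7%). The calls overlapped, with 21 genes rising in both lines (84.0% and 72.4% of the 2 lists) and 5 falling in both. This split depends on scaling: without scaling factors the median over all genes was -0.40 and -0.42, and 1 ribosomal protein gene rose and 44 fell in each line. The shares of all genes called in that setting are not given here. Without single libraries the rises in the GFP line numbered 16 to 26 and the falls 4 to 12; the 16 rises were without GFP LPS library 1, the 4 falls without GFP untreated library 1, and 6 falls were called without GFP untreated library 2, GFP LPS library 1 or either untreated Nur77 library. In the Nur77 line the median was 0.15 without untreated library 2 and 0.17 without LPS library 1.

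The peaks over these genes became shorter and, in scaled tags, denser. Over all H3K27ac peaks the median length also went from 1494 and 1456 bp to 1409 and 1383 bp in the GFP line. For the Nur77 line it went from 1443 and 1454 bp to 1284 and 1332 bp. Before scaling, the median tags of the 78 genes went from 473 and 466 to 381 and 408 in the GFP line. Nur77 line medians before scaling went from 402 and 405.5 to 312 and 371. The median covered length per gene went from 5.24 to 4.17 kb in the GFP line and from 4.89 to 3.85 kb in the Nur77 line, while the density went from 79.0 to 100.5 and from 69.4 to 95.1 tags per kb. Rps27a, the strongest riser in both lines, had 980 and 985 H3K27ac tags untreated and 1805 and 1584 after LPS in the GFP line, a log2 change of 0.78 (SE 0.07, FDR 0.00010, limma). The Nur77 line had 873 and 888 untreated and 1488 and 1412 after LPS, a change of 0.72 (SE 0.07, FDR 0.00013, limma), and its rise held without scaling factors in both (0.37 and 0.29, FDR 0.0025 and 0.0087, limma). Rps6 had 375 and 379 tags untreated and 497 and 503 after LPS in the GFP line and 323 and 317 untreated and 465 and 463 after LPS in the Nur77 line. Its changes of 0.41 and 0.54 (FDR 0.00060 and 0.00015, limma) were -0.001 and 0.10 without scaling factors.

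Rpl26, a large subunit protein known to bind p53 mRNA, rose in H3K27ac by 0.53 and 0.62 (FDR 0.00057 and 0.00025, limma). Rpl24 (0.47), Rpl27a (0.44) and Rps20 (0.44) completed the GFP line list, and Rpl34 (0.61) and Rps27 (0.57) were further rises in the Nur77 line. Rpsa rose by 0.28 and 0.42 (FDR 0.0072 and 0.00093, limma), turning to -0.13 and -0.01 without scaling factors. Rplp0 (0.15 and 0.10) and Rpl3 (-0.03 and -0.08) were not called in either line.

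The largest fall in both lines was at Rpl36a, an X-linked large subunit gene. Its mean H3K27ac tags went from 446 ± 15.4 (SD, n = 2) to 218 ± 140 (SD, n = 2) in the GFP line and from 430 ± 6.94 (SD, n = 2) to 114 ± 13.98 (SD, n = 2) in the Nur77 line. The log2 changes were -1.19 (SE 0.38, FDR 0.030, limma) and -1.91 (SE 0.38, FDR 0.0037, limma), and its covered length went from 7.71 to 4.25 kb and from 7.68 to 2.53 kb. Rps21 fell in both lines, with log2 changes of -0.36 and -0.61 (FDR 0.040 and 0.0042, limma). Further falls were those of Rpl3l (-0.49), Rps10 (-0.40) and Rpl27 (-0.39) in the GFP line and of Rpl10a (-0.57) and Rpl12 (-0.50) in the Nur77 line; those of Rps10 and Rpl27 turned positive as tags per kb (0.19 and 0.39).

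The other lists were counted in H3K27ac beside the shares of all genes, of which 29.0% rose and 25.3% fell in the GFP line and 30.3% rose and 28.3% fell in the Nur77 line. Of 31 translation factor and TOP mRNA genes, 15 rose in each line (48.4%) and 1 and 4 fell (3.23% and 12.9%) in the GFP and Nur77 lines. Of 43 ribosome biogenesis genes, 10 and 19 rose (23.3% and 44.2%) and 10 and 7 fell (23.3% and 16.3%). Of 78 mitochondrial ribosomal protein genes, 17 and 24 rose (21.8% and 30.8%) and 24 and 26 fell (30.8% and 33.3%).

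H3K27ac was lower in the Nur77 line than in the GFP line over many of these genes. Untreated, 23 of 78 were lower and 1 higher (limma, 12.0% and 13.0% of all genes), 4 were positive and the median was -0.17, against 0.01 over all genes. Both Nur77 libraries lay below both GFP libraries at 66 genes (84.6%, against 33.5% of all genes). After LPS 23 were lower and none higher (17.7% and 15.0% of all genes, 31 with unadjusted p below 0.05), with a median of -0.14. Both Nur77 libraries then lay below both GFP libraries at 46 genes (59.0%, against 33.6% of all genes) and above them at 5 (31.6% of all genes); untreated they lay above them at 2 (35.7%). Of the 23 genes lower in each state, 10 were the same, 43.5% of each list.

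Covered length moved with this difference. Untreated, the median covered length was 5.24 kb in the GFP line and 4.89 kb in the Nur77 line, and as tags per kb 0 of 78 genes were lower in either state (limma, 6 and 10 with unadjusted p below 0.05; medians -0.04 and -0.01), while 1 was higher after LPS. Inside the gene windows 19 and 17 genes were lower, with medians of -0.17 and -0.12. At the 33 genes that shared no H3K27ac peak, 15 (45.5%) and 9 (27.3%) were lower, against 12.0% and 17.7% of all genes. Without single libraries the count untreated was 5 without GFP library 1, 11 without GFP library 2, 4 without Nur77 library 1 and 6 without Nur77 library 2; after LPS it was 11 without GFP library 1, 14 without GFP library 2 and 14 without Nur77 library 1.

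Rps7, a small subunit protein that binds MDM2, had the largest reduction among the 78 genes in both states. It had 549 and 504 H3K27ac tags in the untreated GFP libraries and 278 and 273 in the untreated Nur77 libraries, a log2 difference of -0.93 (SE 0.07, FDR 0.00013, limma). After LPS it had 544 and 560 tags in the GFP line and 304 and 320 in the Nur77 line, a difference of -0.82 (SE 0.07, FDR 0.00019, limma). The 2 lines did not overlap in either state. Inside its window the differences were -0.83 and -0.58 and as tags per kb -0.05 and -0.51, its covered length untreated was 6.66 kb in the GFP line and 3.87 kb in the Nur77 line, and a region called in an input library lay over this gene. Rps29, a zinc finger protein of the small subunit, was lower, with log2 differences of -0.64 untreated and -0.49 after LPS (FDR 0.0017 and 0.0044, limma), or -0.52 and -0.42 inside its window. Rpl34 (-0.44), Rpl5 (-0.45) and Rpl3l (-0.40) followed untreated, and Rpl10a (-0.77) and Rpl17 (-0.54) after LPS. Of the usual reference genes Rps6 was lower untreated (-0.24, FDR 0.016, limma) and Rpl3 after LPS (-0.23, FDR 0.033, limma), while Rplp0 and Rpsa were not called.

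The H3K27ac response to LPS differed between the lines at 2 genes in summed tags, and pointed the other way inside their windows, where neither passed. Rps28 had 377 and 393 tags untreated and 439 and 439 after LPS in the GFP line, and 744 and 757 untreated and 460 and 482 after LPS in the Nur77 line, so that only the untreated Nur77 libraries stood apart. Its covered length was 4.66, 4.13, 11.6 and 3.39 kb in these 4 groups. The difference of the LPS changes was -0.86 (SE 0.08, FDR 0.0036, limma) in summed tags and 0.58 (FDR 0.15, limma) inside its window. Rpl10 had 913 and 908 tags untreated and 1037 and 1030 after LPS in the GFP line, and 893 and 907 untreated and 605 and 686 after LPS in the Nur77 line, with covered lengths of 15.2, 15.2, 15.4 and 6.34 kb. The difference of its LPS changes was -0.66 (SE 0.09, FDR 0.027, limma) in summed tags and 0.61 (FDR 0.051, limma) inside its window. No gene of the family was called in the other direction (0.174% of all genes were, and 0.68% in the direction of these 2), and 7 of 78 had an unadjusted p below 0.05. A single call of the 2 was lost without either untreated GFP library, without GFP LPS library 2 and without either untreated Nur77 library, and without GFP LPS library 2 there was 1 call in the other direction.

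**Figure D4:**
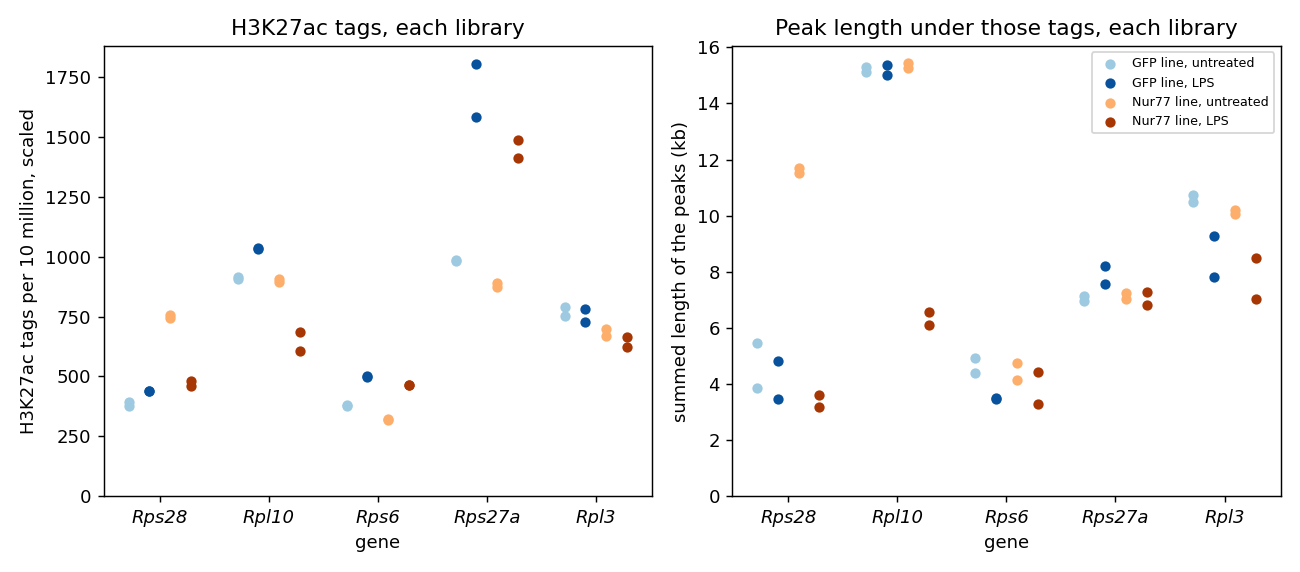
H3K27ac tags per 10 M, scaled (left, y axis from 0) and the summed length of the peaks in kb (right, y axis from 0) for 5 ribosomal protein genes in each of 8 libraries, coloured by group. The untreated Nur77 libraries of Rps28 hold 744 and 757 tags over 11.6 kb and the Nur77 LPS libraries of Rpl10 hold 605 and 686 tags over 6.34 kb, apart from the other groups on both axes.

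HA-Nur77 peaks were called at 11 to 40 of the 81 ribosomal protein genes in a library. Of the 81 genes 61 had an HA peak in at least 1 of the 6 HA libraries, 20 had none and 4 had one in all 6: Rps9, Rps19, Rps3 and Rps15a. A region called in an input library lay over Rps15a. Among the genes with Pol II peaks in all Pol II libraries, 5.13% of the ribosomal protein genes and 38.3% of all such genes had an HA peak in all 6 HA libraries. By library, 40, 11 and 38 of the 81 genes had a peak in untreated libraries 1, 2 and 3, and 37, 26 and 36 in LPS libraries 1, 2 and 3. These are 49.4%, 13.6% and 46.9% of the family untreated and 45.7%, 32.1% and 44.4% after LPS. Of all protein-coding genes, 36.1%, 33.2% and 39.1% had a peak untreated and 39.8%, 43.6% and 43.9% after LPS, so that the family was above them in 4 of 6 libraries and below them in library 2 of either state. In LPS library 3 the shares were close, 44.4% and 43.9%. The comparison turned when both sides were limited to genes with Pol II peaks in all Pol II libraries. There 14.1% to 51.3% of the 78 ribosomal protein genes and 52.7% to 69.2% of all such genes had a peak, and the family was lower in all 6 libraries. The part that the short span of these genes, given above, has in this difference was not tested. The peaks were of moderate height, with medians between 14.4 and 50.1 deposited tags over these genes and between 17.0 and 42.1 over all peaks of the same libraries.

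**Figure D5:**
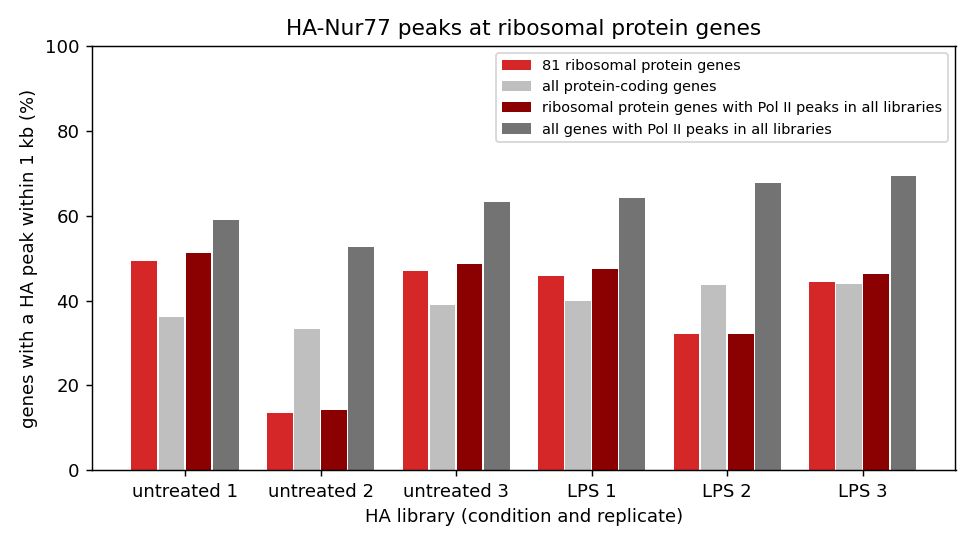
Percentage of genes with an HA peak within 1 kb of the gene span (y axis) in each of 6 HA libraries of the Nur77 line (x axis), for the 81 ribosomal protein genes (red), all protein-coding genes (light grey), the 78 ribosomal protein genes with Pol II peaks in all Pol II libraries (dark red) and all genes with such peaks (dark grey). The red bars lie above the light grey ones in 4 of 6 libraries, though they are close in LPS library 3 (44.4% and 43.9%). The dark red bars, 14.1% to 51.3%, lie below the dark grey ones, 52.7% to 69.2%, in every library.

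None of the 4 genes with HA peaks throughout passed the test of the LPS change. Rps9 held 40.4, 102 and 41.0 scaled HA tags in the untreated libraries and 51.6, 133 and 47.1 after LPS, with library 2 high in both states. Its log2 change was 0.31 (SE 0.48, FDR 0.80, limma). Rps15a held 27.6, 47.4 and 28.2 untreated and 27.8, 74.9 and 38.2 after LPS, a change of 0.36 (SE 0.40, FDR 0.71, limma). Rps19 held 32.5, 45.2 and 24.6 untreated and 32.8, 35.1 and 56.0 after LPS, a change of 0.27 (SE 0.34, FDR 0.75, limma), and Rps3 held 23.9, 35.1 and 24.2 untreated and 38.9, 24.6 and 21.0 after LPS. All 4 pairs of groups overlapped, and none of the 4 was called (limma, 0 with unadjusted p below 0.05; 1.82% and 0.686% of 5103 genes were called higher and lower). With the replicate block, which the same-numbered HA libraries warranted, none of the 4 was called either, while 10.9% and 8.7% of all genes were.

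The position of these peaks differed. At Rps3 and Rps19 the centres of the peaks lay within 290 bp of an annotated start, apart from an additional Rps19 peak 1232 bp into the gene in LPS library 3. At Rps9 they lay 3152 to 3235 bp beyond the start, past the annotated gene end, and at Rps15a 11233 to 11318 bp beyond it, near the end of the gene. AAGGTCA or its reverse complement was found in the promoter windows of 5 members, Rps3, Rpl24, Rpl35a and the paralogs Rpl10l and Rpl3l. The Rps3 match lay under an HA peak in 6 of 6 libraries, that of Rpl35a in 5, that of Rpl24 in 2 and those of Rpl10l and Rpl3l in none. Over all protein-coding genes 8.58% of 862 such matches lay under a peak in all 6, and 25.5% in at least 1. The median HA peak length was 911, 1017 and 343 bp in untreated libraries 1, 2 and 3 and 877, 827 and 427 bp after LPS. The part of peak length in these counts was not tested. The matches of Rps3 and Rpl35a are shown because HA peaks cover them, read along the gene's sense strand with the reverse complement in capitals; Rpl35a was chosen after its values were seen.
Rps3 (chr7:99483902-99483928, minus strand): tagtcaatgaTGACCTTaaacttgtga
Rpl35a (chr16:33056380-33056406, plus strand): tctctgtctcTGACCTTtgctttctgg
The Rps3 match begins 209 bases before the start and that of Rpl35a 63 bases before the first of its 3 annotated starts. Rpl35a, a large subunit protein, held 60.7, 0 and 73.5 scaled HA tags in untreated libraries 1, 2 and 3 and 51.1, 34.6 and 53.7 after LPS, with no peak called in untreated library 2. It was not tested because it lacked a peak in that library. Of the genes with the largest Pol II changes, Rps27a and Rps13 had no HA peak in any library, Rps6, Rpl27a and Rps25 had one in untreated library 1 alone, with 17.1, 18.4 and 19.6 scaled tags, and Rpl38 had one in LPS library 3 alone, with 21.9 scaled tags. Rps20 had a peak in 3 of the 6 libraries, with 17.8 and 16.3 scaled tags in untreated libraries 1 and 3 and 19.99 in LPS library 1.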

How the data were processed

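Per the submitters' processing notes, the authors used HISAT2 2.1.0, HOMER and the mm10 build; the handling of multiply mapped reads is not given in the sources used here. Each Pol II, H3K27ac and HA library has 1 deposited HOMER peak list, whose signal column holds normalized tags per 10 M mapped tags, per the file headers. For the input libraries, lists of regions and of peaks were read. For every protein-coding gene of the RefSeq table, tags of peaks touching the span plus 1 kb were summed per library. Library scaling used trimmed means of M-values, and sums were tested as log2(tags + 1) with limma 3.58.1 (R 4.3.3), trend on, all groups of a target in 1 fit, over genes with a peak in every library, with Benjamini-Hochberg adjustment over all genes. The fit was tested on simulated data. Tags are relative to each library's total, so a change of all genes at once is not measured. Same-numbered libraries from the labels' numbers correlated in their deviations from group means, with r = 0.21 to 0.46 for Pol II and 0.38 to 0.64 for HA. For H3K27ac r was -0.06 to 0.10. The main tests of all 3 targets had no block and so did not use the pairing. Fits with the replicate number as a block were run as an alternative and are named as such where given. Named genes were Rplp0, Rpsa, Rps6 and Rpl3, up to 5 called genes per direction and comparison (the 3 smallest p-values where fewer than 3 passed), the 3 highest and 3 lowest Pol II levels per kb, the l-suffix paralogs, genes with HA peaks in every library, and at most 2 genes per other list. Some genes that the rule picks are not reported here by name. Members and lists were chosen with earlier results of these data known. Alternatives changed the scaling, window, pseudocount, peak filter, block, groups fitted and libraries.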

Additional observations from a re-analysis of the deposited data

Results flagged for a closer look

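In H3K27ac, 2 ribosomal protein genes had an LPS change that differed between the lines by the test of the difference itself, Rps28 with -0.86 and Rpl10 with -0.66 on the log2 scale (Nur77 line minus GFP line, limma, FDR 0.0036 and 0.027). Inside the gene windows both differences were positive, 0.58 and 0.61, and neither was called. The covered length moved with the result: the peaks of Rps28 covered 11.6 kb in the untreated Nur77 libraries and 3.39 to 4.66 kb in the other groups, and those of Rpl10 covered 6.34 kb in the Nur77 LPS libraries and 15.2 to 15.4 kb elsewhere.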

How the results depend on the processing

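Depth and 2 libraries per group limit these results, and changes of all genes at once are not measured. The causes of the shifts below were not tested. Most counts below stand without the share of all genes called in the same setting. Without scaling factors, the Pol II LPS medians were 0.26 (2 higher) in the GFP line and 0.32 (8 higher, 1 lower) in the Nur77 line, the difference between them 0.0496 and the untreated line difference 0.0856; the H3K27ac LPS medians were -0.30 and -0.34 (1 higher and 44 lower in each), the line difference after LPS -0.20, and 1 gene had a lower LPS response in the Nur77 line. For single genes in H3K27ac without scaling factors, Rps6 was at -0.001 and Rpsa at -0.13 in the GFP line, and Rplp0 at -0.33 and Rpsa at -0.0097 in the Nur77 line.

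Inside the windows, Pol II gave 0.27 (5 higher) and 0.52, and H3K27ac 0.17 (6 lower) and 0.20, with 0 genes higher between lines untreated, 1 after LPS and 0 differing in LPS response. As tags per kb, Pol II gave 0 higher in the GFP line, 3 and 0.39 in the Nur77 line, 0.0936 for the difference and 0.0634 between lines untreated; H3K27ac gave 0.18 (16 higher, 5 lower) and 0.21, and between lines -0.0394 untreated (0 higher, 0 lower) and -0.0096 after LPS (1 higher, 0 lower), with 0 genes differing in LPS response. For single genes in H3K27ac, inside the window and as tags per kb, the LPS change of Rps28 in the Nur77 line was 0.84 and 0.89, its line difference untreated -0.29 and -0.28 and its difference of LPS changes 0.58 and 0.74. Rpl10 gave 0.58 and 0.67 between lines after LPS and 0.61 and 0.61 for the difference of LPS changes, and Rpl27 gave 0.20 and 0.39 in the GFP line. As tags per kb Rps10 was at 0.19 in the GFP line, and between lines Rpl5 was at 0.34 untreated and Rpl17 at 0.18 and Rpl3 at 0.0105 after LPS.

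With the replicate block, Pol II gave 32 higher and 1 lower in the GFP line and 1 lower in the Nur77 line, and 30 higher there without untreated Nur77 library 1. H3K27ac numbers do not pair the libraries; with the block 24 and 26 genes rose after LPS, 19 were lower between lines in either state and 1 differed in LPS response. Fits of only the 2 groups compared gave 2 higher for Pol II in the GFP line, and for H3K27ac 6 lower in the GFP line and 13 lower between lines after LPS. Peaks of at least 20 tags gave 7 higher for Pol II in the GFP line. Among the 25 genes sharing no Pol II peak, 2 (8%) and 17 (68%) were higher, against 7.78% and 12.1% of all genes. At the 33 sharing no H3K27ac peak, 9 rose (27.3%) and 2 fell (6.06%) in the GFP line, against 29.0% and 25.3%. For the Nur77 line 12 rose (36.4%) and 3 fell (9.09%), against 30.3% and 28.3%. Between lines 0 of the 33 were higher and 15 lower untreated, 9 were lower after LPS and 0 differed in LPS response. Without genes under an input region, 15 of 63 were lower in H3K27ac between lines after LPS.

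Leaving out 1 library at a time gave 0 to 8 higher for Pol II in the GFP line and 7 to 43, with a median of 0.59 to 0.75, in the Nur77 line. For H3K27ac it gave 16 to 26 higher and 4 to 12 lower in the GFP line, a median of 0.051 to 0.17 in the Nur77 line, 4 to 27 lower between lines untreated, 0 to 1 higher and 11 to 21 lower after LPS, and 0 to 1 higher and 1 to 2 lower in LPS response. The HA median was 0.03 to 0.42. Leave-one-out aside, named genes kept direction and side of the threshold in 1020 values, and in 63 fell below it, in 18 passed it and in 20 turned.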
